A study of Homo sapiens with 2 samples.

Results

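The SLC25 genes encode the carriers that move nucleotides, phosphate, organic acids, amino acids, cofactors and metal ions across the inner mitochondrial membrane. The family was taken as every row of the deposited tables whose name is SLC25A followed by a number alone, which gave 47 genes among 55773 gene symbols. Of these, 34 were measured, meaning at least 1 RPKM (reads scaled to exon length and to the library's total reads) in at least 1 library. SLC25A10 is listed in 2 rows with a suffix, does not meet that rule, and is described apart.

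Carriers of this family share a fold of paired membrane helices and mostly work by exchange, importing one solute while exporting another. The best known are the ADP/ATP carriers, which export ATP made by oxidative phosphorylation and import ADP. A few members sit elsewhere: SLC25A17 is a carrier of the peroxisomal membrane and SLC25A46 a protein of the outer mitochondrial membrane.

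Both libraries came from BFTC 905, an established line of human urothelial carcinoma of the bladder, grown in RPMI-1640 with 10% serum and kept as stable transfectants in 400 µg/ml G418. The control carried the empty pcDNA3.1-myc-His (-) A vector and the other a plasmid that expresses ANGPTL4, a secreted inhibitor of lipoprotein lipase, and both groups therefore carry a plasmid and the drug selection. Whether each library was made from 1 clone or from several is not given in the labels. Each group had 1 library, so differences have no replicate check and no test between groups was made. In bulk RNA, fewer cells that express a gene and less RNA per cell cannot be told apart.

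The RPKM steps gave 6572767 reads in the vector control library and 3233596 in the ANGPTL4 library. ANGPTL4 itself was at 3.92 and 91.2 RPKM, which matches the labels. Of 12 urothelial and epithelial markers, 11 were measured and none differed 2-fold. Few genes did: 1.91% of all measured genes were at least 2-fold lower and 1.19% at least 2-fold higher. UPK3A was listed at 0 in both libraries. Of 14 markers listed for leukocytes, endothelial cells and fibroblasts, 13 were present and only CD14 was measured, at 0.968 and 1.15 RPKM. Mitochondrially encoded protein genes took 5.11% of the control's reads and 8.71% of those of the ANGPTL4 library. Where a gene has paired values, the vector control comes first, and ratios are ANGPTL4 over control. All intervals are 95% intervals and cover counting error only.

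Levels spread widely over the family, and its order at the top was the same in both libraries. SLC25A6 and SLC25A5, which encode ADP/ATP carriers, were highest, followed by SLC25A39, SLC25A3 and SLC25A1. The summed level of all 47 members was 800.3 RPKM in the vector control and 655 RPKM in the ANGPTL4 library, a ratio of 0.819. SLC25A3, SLC25A5, SLC25A6 and SLC25A39 together held 72.0% of the control sum and 71.9% of the other, so the sums mostly reflect these 4 genes. SLC25A6 alone made up 30.9% of the family sum with the empty vector and 40.4% with ANGPTL4. Without SLC25A6 the sums were 553 and 391 RPKM, a ratio of 0.706.

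**Figure D1:**
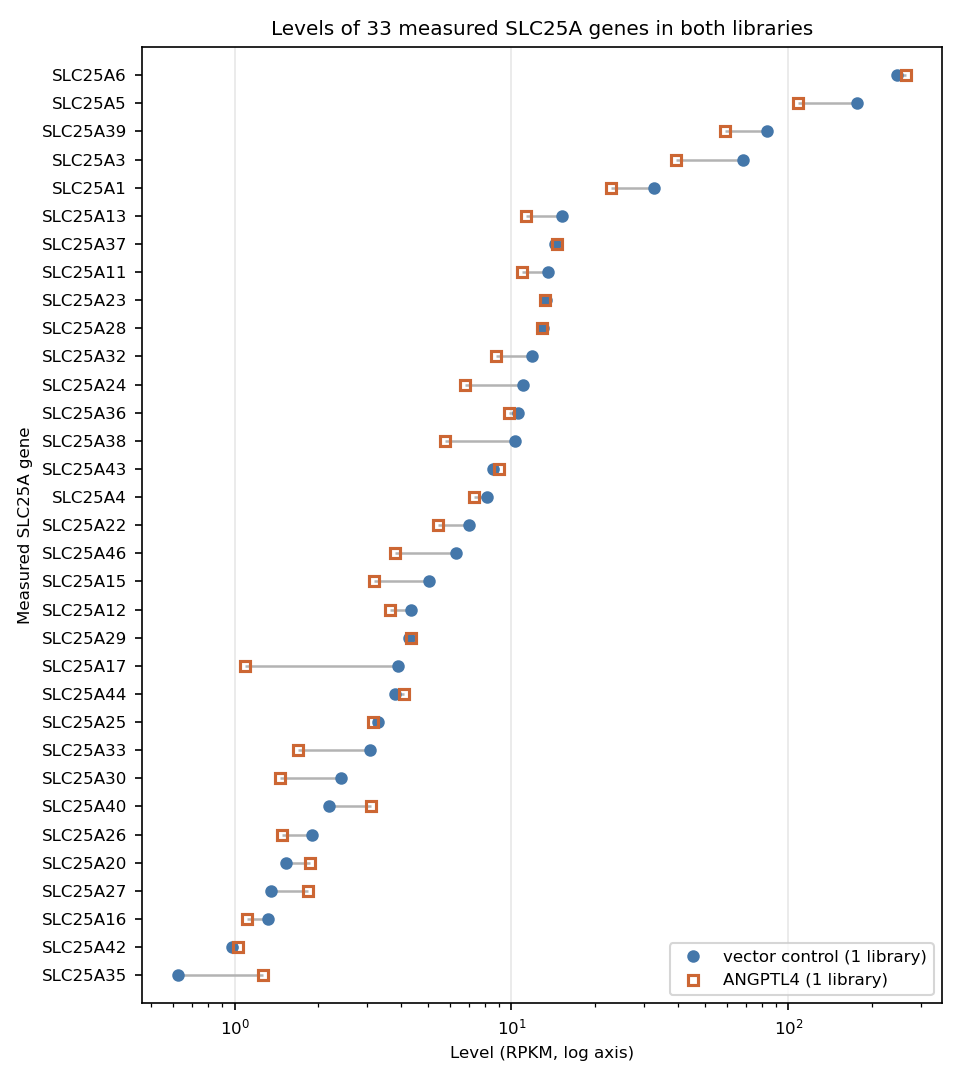
Level of each of 33 measured SLC25A genes (RPKM, log axis) in the vector control library (filled circles) and the ANGPTL4 library (open squares), ordered by the control level. SLC25A6, at 247 and 265 RPKM, lies at the top, and the line joining both libraries is widest for SLC25A17, at 3.89 and 1.09 RPKM.

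Most carriers had lower values in the ANGPTL4 library, by moderate amounts. Of the 34 measured members, 24 were lower and 10 higher, or 70.6% lower against 64.4% of all 11802 measured genes. The median log2 ratio of (RPKM + 1) was -0.17 for the members and -0.11 for all measured genes. Counted from the median gene, 19 members lay below and 15 above, where 50.0% of genes lie below. SLC25A17 was the sole member at least 2-fold lower on that scale, beside 1.91% of all measured genes. No member was at least 2-fold higher on it, beside 1.19% of genes. The split depended on scaling: 15 were higher and 19 lower after centring on the median gene, 16 and 18 with upper-quartile scaling, 4 and 30 with the same total RPKM, and 15 and 19 with the same total without mitochondrially encoded genes. After removal of a trend with exon length it was 14 and 20. In all, 18 of the 24 lower and 4 of the 10 higher members kept their sign under each of these. Among the lower members, SLC25A4, SLC25A23, SLC25A25, SLC25A28 and SLC25A36 were of those that became higher under at least 1 alternative. Of the higher, SLC25A6, SLC25A29, SLC25A37, SLC25A42, SLC25A43 and SLC25A44 became lower with the same total RPKM.

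Counting intervals of the plain RPKM ratio lay below 1 for 12 members and above 1 for 1, SLC25A6. Among 8739 measured genes whose reads could be settled, 27.2% lay below 1 and 8.57% above. The member counts also take in 6 members whose reads were not settled, so the sets compared here are unlike. Of those 6, the intervals of SLC25A5, SLC25A13, SLC25A24 and SLC25A30 lay below 1 and that of SLC25A6 above. Set against the ratio of the median gene, 0.911, the interval lay below for 10 members and above for 3, where 16.5% of genes lay below and 16.3% above. The 3 above were SLC25A6, SLC25A35 and SLC25A40. A gene with more reads has a narrower interval, so these counts also depend on level.

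**Figure D2:**
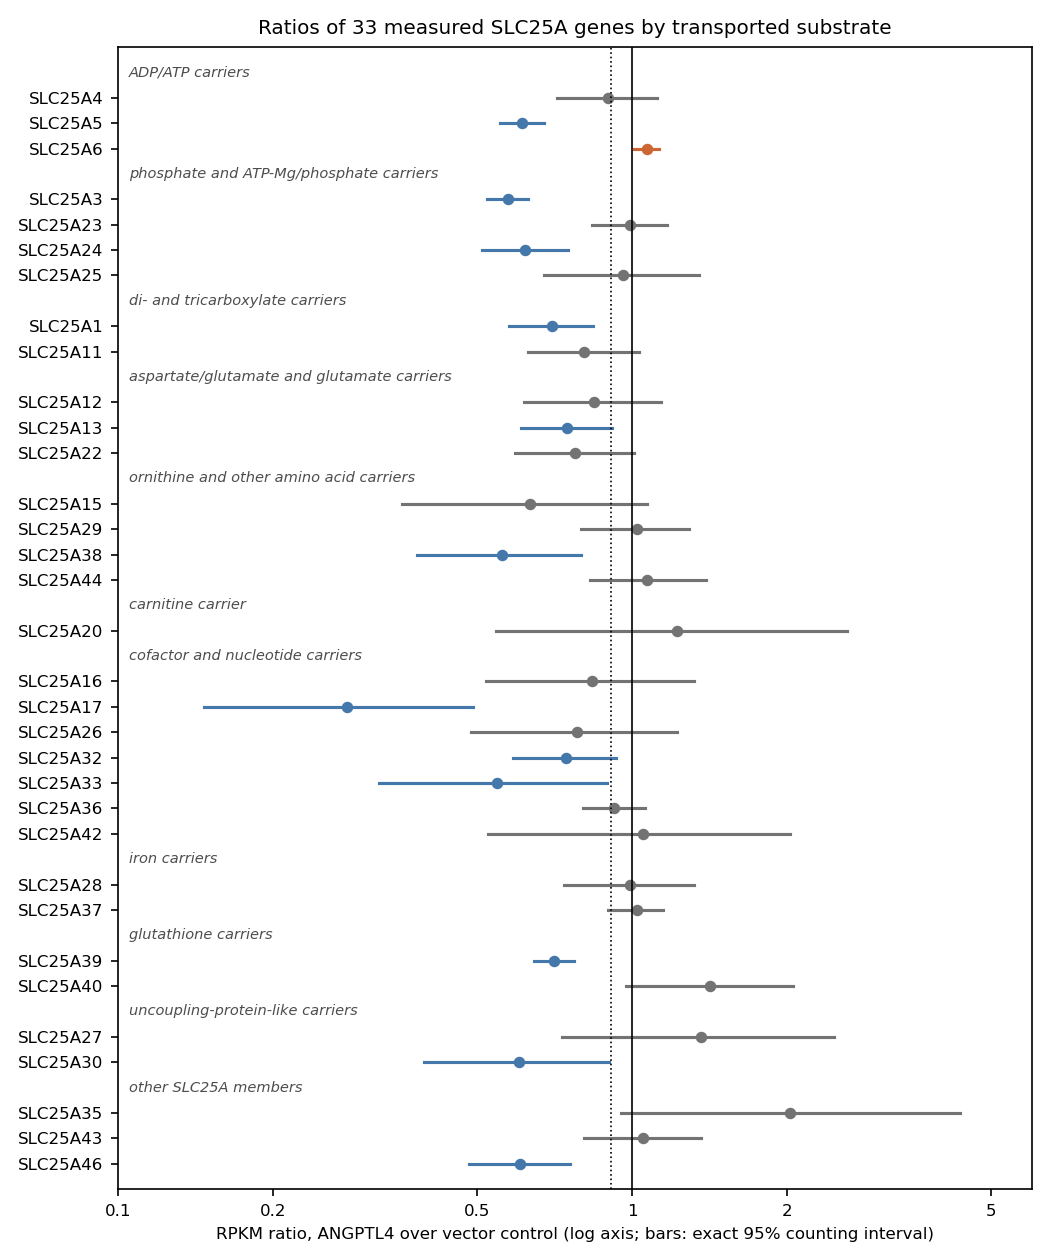
RPKM ratio of the ANGPTL4 library over the vector control library (log axis) for 33 measured SLC25A genes, grouped by what they carry, with exact 95% counting intervals as bars. The solid line marks 1 and the dotted line the median gene at 0.911; blue intervals lie below 1 (12 genes), the orange one above 1 (SLC25A6), and grey ones include 1.

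The ADP/ATP carriers differed among themselves. SLC25A5 was at 177 RPKM in the vector control and 108 RPKM in the ANGPTL4 library, a ratio of 0.611 (0.553 to 0.674, from 1746 and 525 reads). SLC25A6 was at 247 and 265 RPKM, a ratio of 1.07 (1.01 to 1.13, from 3516 and 1852 reads). SLC25A4, the form known from heart and muscle, was far lower at 8.17 and 7.34 RPKM, and its interval of 0.715 to 1.12 included 1. Thus SLC25A5 was lower in the ANGPTL4 library while SLC25A6 was slightly higher, except after rescaling to the same total RPKM, where the log2 ratio of SLC25A6 was -0.07. SLC25A31, the form known from testis, was listed at 0 in both libraries. Processed copies bear on the reads of this group: the tables hold 9 pseudogene rows named after SLC25A5, all at 0 in both libraries, and 6 named after SLC25A6, of which 1 was above 0, at 0.147 RPKM in the control. How reads that match several loci were handled is not given in the sources used here.

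The sequences before the start sites of SLC25A5 and SLC25A6 are shown because these abundant close relatives lay on opposite sides of 1. That of SLC25A17 is shown because this gene had the lowest ratio among the measured members. Each is the 250 bases upstream of the start, read 5′ to 3′ on the gene's strand, from RefSeq on GRCh38.p14, a later build than the hg19 of the tables. Capitals mark the motifs searched on both strands: the CCAAT box (CCAAT), the TATA box (TATAAA), the GC box (GGGCGG), the ETS core (CCGGAAG) and an NRF1 core (GCGCATGC). No marked match overlapped a match of another motif. SLC25A5 lies at chrX:119468194-119468443 on the plus strand, SLC25A6 at chrX:1392114-1392363 on the minus strand and SLC25A17 at chr22:40819347-40819596 on the minus strand.
SLC25A5: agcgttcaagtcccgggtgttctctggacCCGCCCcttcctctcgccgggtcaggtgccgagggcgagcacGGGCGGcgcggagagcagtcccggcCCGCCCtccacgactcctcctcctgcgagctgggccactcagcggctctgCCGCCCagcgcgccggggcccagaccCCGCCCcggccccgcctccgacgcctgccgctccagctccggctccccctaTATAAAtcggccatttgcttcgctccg
SLC25A6: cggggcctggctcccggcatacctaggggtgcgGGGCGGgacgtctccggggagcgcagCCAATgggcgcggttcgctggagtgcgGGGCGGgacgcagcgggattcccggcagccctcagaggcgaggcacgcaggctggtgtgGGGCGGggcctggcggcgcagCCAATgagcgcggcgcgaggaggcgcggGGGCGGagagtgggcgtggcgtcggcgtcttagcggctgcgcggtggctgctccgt
SLC25A17: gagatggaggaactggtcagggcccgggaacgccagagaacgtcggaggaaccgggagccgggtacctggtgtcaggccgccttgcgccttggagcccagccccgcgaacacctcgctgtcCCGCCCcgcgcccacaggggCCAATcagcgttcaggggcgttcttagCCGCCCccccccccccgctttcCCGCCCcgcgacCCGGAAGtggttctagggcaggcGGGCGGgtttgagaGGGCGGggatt

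In these windows SLC25A5 held 1 TATA box and 5 GC boxes, SLC25A6 held 2 CCAAT boxes and 4 GC boxes, and SLC25A17 held 1 CCAAT box, 5 GC boxes and 1 ETS core. Promoters were found for 28 of the 34 measured members; those not matched include SLC25A16, SLC25A30, SLC25A32, SLC25A35 and SLC25A37. A CCAAT box was present in 15 of the 28, or 53.6%, against 33.0% of all 27305 promoters and 35.8% of the 8478 promoters of measured genes. For the GC box the shares were 71.4% of members, 42.3% of all and 69.4% of measured genes, and for the ETS core 21.4%, 8.82% and 16.9%. The TATA box was in 2 members, or 7.14%, against 11.1% of all and 5.12% of measured genes. None of the 28 held the NRF1 core, which 2.81% of all promoters and 4.99% of those of measured genes held. The median GC content of these windows was 68.6% for members and 65.2% for measured genes. These matches describe letters in a window only.

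Phosphate enters mitochondria through SLC25A3, the carrier that supplies ATP synthase. SLC25A3 was at 68.6 RPKM in the vector control and 39.3 RPKM in the ANGPTL4 library, a ratio of 0.573 (0.522 to 0.628, from 2111 and 595 reads). Its log2 ratio of -0.79 was the lowest among members with at least 10 RPKM in a library. The calcium-regulated ATP-Mg/phosphate carriers, which exchange whole adenine nucleotides for phosphate, were not uniform. SLC25A24 was at 11.0 and 6.80 RPKM, a ratio of 0.620 (0.511 to 0.749). By contrast SLC25A23 was at 13.3 and 13.2 RPKM and SLC25A25 at 3.30 and 3.17 RPKM, with intervals of 0.837 to 1.17 and 0.674 to 1.35. SLC25A41 was listed at 0 in both libraries.

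Carriers of organic acids had lower or closely similar values. SLC25A1, which exports citrate for lipid synthesis in the cytosol, was at 32.7 and 22.8 RPKM, a ratio of 0.697 (0.577 to 0.839). SLC25A11, the oxoglutarate/malate carrier, was at 13.5 and 10.9 RPKM, and its interval of 0.628 to 1.03 included 1. SLC25A10, the dicarboxylate carrier outside the naming rule, has 2 overlapping rows with opposite directions. The first row was at 2.92 and 5.93 RPKM and the second at 14.5 and 11.1 RPKM, while their sum was 17.5 and 17.1 RPKM. Division of reads between those rows is uncertain, since their regions overlap almost wholly on chromosome 17 (79670401 to 79687569 and 79670404 to 79688042, hg19).

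The aspartate/glutamate carriers, which with SLC25A11 run the malate-aspartate shuttle, were lower in value by small amounts. SLC25A13, also called citrin, was at 15.2 and 11.3 RPKM, a ratio of 0.747 (0.609 to 0.912), and SLC25A12, also called aralar, at 4.33 and 3.65 RPKM (0.615 to 1.14). The interval of SLC25A13 lay below 1 but included the ratio of the median gene. SLC25A22, a glutamate carrier, was at 7.04 and 5.45 RPKM (0.591 to 1.01). Of 14 listed enzymes that work with carrier shuttles, 13 were measured, 11 were lower and the median log2 ratio was -0.20, where 64.4% of all measured genes were lower. On the log2(RPKM + 1) scale the cytosolic malate dehydrogenase MDH1 was the sole one at least 2-fold lower, beside 1.91% of all measured genes. MDH1 was at 13.6 and 5.08 RPKM (ratio 0.375, 0.292 to 0.475). Its mitochondrial counterpart MDH2 was at 81.8 and 83.8 RPKM, and the mitochondrial aspartate aminotransferase GOT2 at 95.3 and 54.0 RPKM. GLUD1, glutamate dehydrogenase, was at 83.6 and 41.6 RPKM, a plain ratio of 0.498 (0.452 to 0.547).

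Among the remaining amino acid carriers, SLC25A38, which brings glycine into mitochondria for haem synthesis, had the lowest ratio. It was at 10.3 RPKM in the vector control and 5.75 RPKM in the ANGPTL4 library, a ratio of 0.557 (0.382 to 0.795, from 146 and 40 reads). SLC25A15, the ornithine carrier of the urea cycle, was at 5.05 and 3.20 RPKM (0.357 to 1.07). SLC25A29, a carrier of basic amino acids, was at 4.25 and 4.32 RPKM, and SLC25A44, a carrier of branched-chain amino acids, at 3.81 and 4.09 RPKM. Intervals of these last 3 genes included 1. SLC25A20, which brings acylcarnitines in for fatty acid oxidation, was at 1.54 and 1.88 RPKM from 20 and 12 reads, and its interval of 0.544 to 2.62 is too wide to show a difference at this depth.

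Among carriers of cofactors and nucleotides, SLC25A17 stood lowest. This peroxisomal carrier of coenzyme A and related cofactors was at 3.89 RPKM in the vector control and 1.09 RPKM in the ANGPTL4 library, a ratio of 0.279 (0.147 to 0.490, from 102 and 14 reads). On the log2(RPKM + 1) scale the difference was -1.23, and with a pseudocount of 5 it was -0.55, short of 2-fold. The gene (chromosome 22, 41165634 to 41215403, hg19) has no pseudogene row, and the 3 rows that overlap it were at 0 in both libraries. The pyrimidine nucleotide carrier SLC25A33 was at 3.08 and 1.69 RPKM, a ratio of 0.547 (0.321 to 0.895), whereas its relative SLC25A36 was at 10.6 and 9.78 RPKM (0.801 to 1.06). SLC25A32, a carrier linked to folate and FAD, was at 11.9 and 8.80 RPKM, a ratio of 0.742 (0.587 to 0.932), an interval that included the median gene. The region of SLC25A32 overlaps 476 bases of that of DCAF13, which was at 14.3 and 10.3 RPKM. Intervals of the following 3 members of this group included 1. SLC25A26, the S-adenosylmethionine carrier, was at 1.90 and 1.48 RPKM. SLC25A16 was at 1.32 and 1.11 RPKM and SLC25A42, a coenzyme A carrier, at 0.976 and 1.03 RPKM.

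The mitoferrins, which import iron for haem and iron-sulfur clusters, were nearly equal in both libraries. SLC25A37 was at 14.4 and 14.6 RPKM (ratio 1.02, 0.896 to 1.15) and SLC25A28 at 13.0 and 12.9 RPKM (ratio 0.989, 0.737 to 1.32). The pair linked to mitochondrial glutathione import went apart. SLC25A39 was at 83.7 and 59.0 RPKM, a ratio of 0.705 (0.645 to 0.770), and SLC25A40 at 2.19 and 3.1 RPKM, a ratio of 1.42 (0.973 to 2.06). The interval of SLC25A40 included 1, yet lay above the ratio of the median gene. The region of SLC25A40 overlaps 142 bases of that of DBF4, which was at 6.87 and 7.96 RPKM.

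Members related to uncoupling proteins were low in level. SLC25A30 was at 2.42 and 1.46 RPKM, a ratio of 0.602 (0.393 to 0.901), and SLC25A27 at 1.36 and 1.84 RPKM (0.729 to 2.47). SLC25A46, which takes part in mitochondrial shape and fission, was at 6.28 and 3.81 RPKM, a ratio of 0.606 (0.481 to 0.758). SLC25A43 was at 8.60 and 9.03 RPKM (0.807 to 1.36). SLC25A35 had the highest log2 ratio of the family, 0.48, at 0.625 and 1.27 RPKM, but from 16 reads in each library, and its plain ratio of 2.03 had an interval of 0.952 to 4.34 that included 1. Its region also overlaps 1596 bases of that of RANGRF, which was at 7.43 and 5.69 RPKM.

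Ratios between related carriers within a library do not depend on how the libraries are scaled. Of 9 such pairs, 6 had an interval that left out 1. The share over other gene pairs was not worked out, so this count is not a trait of carriers. Of single settled genes, 27.2% had an interval below 1 and 8.57% above. Unlike the pair ratios, these single-gene shares depend on scaling, so they are not a like background for the pairs. The 6 pairs are not separate, since SLC25A5 and SLC25A24 each stand in more than 1 of them. SLC25A6 over SLC25A5 was 1.40 in the vector control and 2.45 in the ANGPTL4 library, a change of 1.75-fold (1.56 to 1.96). SLC25A39 over SLC25A40 was 38.3 and 19, a change to 0.497 (0.339 to 0.733). SLC25A23 over SLC25A24 was 1.22 and 1.95, a change of 1.60-fold (1.24 to 2.07). In contrast, citrin over aralar was 3.51 and 3.11 and SLC25A37 over SLC25A28 was 1.11 and 1.13, and both intervals included 1. These pairs were chosen by shared substrate with the values of the members known.

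**Figure D3:**
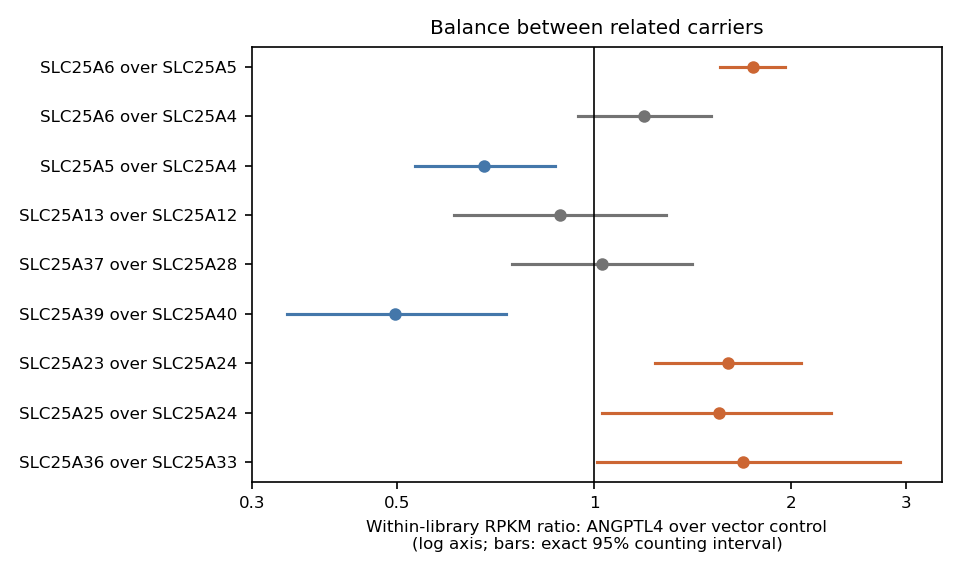
Change of the RPKM ratio between 2 related SLC25A genes, ANGPTL4 library over vector control library (log axis), for 9 pairs, with exact 95% counting intervals as bars. SLC25A6 over SLC25A5 lies at 1.75 and SLC25A39 over SLC25A40 at 0.497, while SLC25A13 over SLC25A12 and SLC25A37 over SLC25A28 include the line at 1.

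Lower values made up a larger share of the abundant carriers than of the less abundant ones. Of the 14 members with at least 10 RPKM in a library, 12 were lower and the median log2 ratio was -0.39, against 2788 of 4190 genes and a median of -0.13 for all genes at that level. The 2 exceptions were SLC25A6 and SLC25A37. Of the 20 members below 10 RPKM in both libraries, 12 were lower and the median was -0.11, against 4817 of 7612 genes and a median of -0.10 for all such genes. SLC25A17 is among these 20. Of the measured members, 10 have a pseudogene row named after them, and the interval lay below 1 for 6 and above 1 for 1 of these. Among the 24 measured members without such a row the interval lay below 1 for 6, or 25% against 27.2% of all settled genes, and above 1 for none, against 8.57%. Unlike the genes set beside them, these 24 members include SLC25A13, SLC25A30 and SLC25A44, whose reads were not settled. For the 24 as a whole, values follow. The median log2 ratio of the 24 members without a pseudogene row was -0.11. The part of pseudogenes in these values was not tested.

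The 17 members with exon length up to the median of 4254 bases had a median log2 ratio of -0.39 and the 17 longer ones -0.14, beside -0.14 and -0.10 for all genes split there. The 34 genes are not independent replicates and share both libraries. Across them, Spearman's rho of log2 ratio with exon length was 0.09, beside 0.07 for 10826 measured genes with a length. With mean level, rho was -0.30 for the 34 genes, beside -0.02 for the same 10826 genes. After subtraction of the trend with length over all measured genes, SLC25A17 was at -1.09, SLC25A3 at -0.66, SLC25A38 at -0.58, SLC25A5 at -0.57 and SLC25A6 at 0.26.

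**Figure D4:**
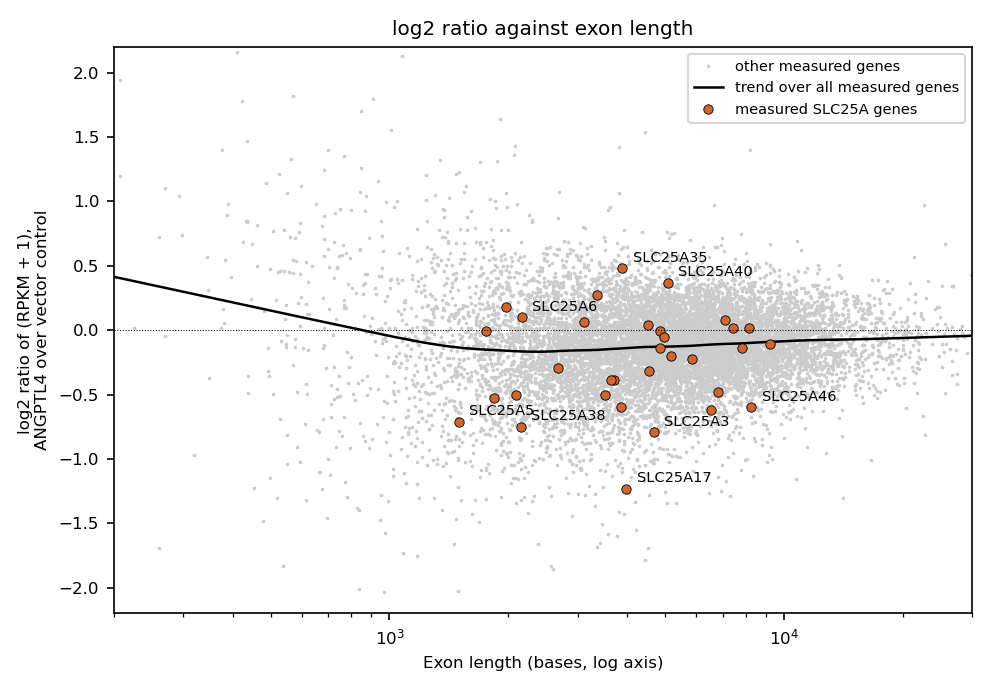
The log2 ratio of (RPKM + 1), ANGPTL4 over vector control, against exon length (bases, log axis) for measured genes (grey), 33 measured SLC25A genes (orange) and the trend over all measured genes (black line); values beyond the axes are not drawn. SLC25A17 at -1.23 lies farthest below the trend and SLC25A35 at 0.48 farthest above it among the SLC25A genes.

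The other 13 members did not reach 1 RPKM in either library. SLC25A2, SLC25A31, SLC25A34, SLC25A41, SLC25A47, SLC25A48 and SLC25A52 were listed at 0 in both, which allows levels of up to 0.0545 to 0.346 RPKM with the empty vector and 0.111 to 0.703 RPKM with ANGPTL4, taking 3 reads on the GENCODE exon length as the limit. SLC25A14 lay just below the threshold, at 0.950 and 0.966 RPKM, and SLC25A42 just above it. SLC25A51, a carrier of NAD+, was at 0.463 and 0.471 RPKM and SLC25A45 at 0.291 and 0.236 RPKM. SLC25A21 was at 0.288 and 0.167 RPKM and SLC25A53 at 0.133 and 0.136 RPKM. SLC25A18 had 1 control read and none with ANGPTL4.

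Relatives listed under other symbols lay in the same range. MTCH1 and MTCH2, outer membrane proteins of the carrier fold, were at 64.6 and 45.5 RPKM (ratio 0.704, 0.632 to 0.783) and at 20.1 and 15.9 RPKM (ratio 0.793, 0.652 to 0.961). UCP2, an uncoupling protein, was at 1.32 and 1.53 RPKM (0.587 to 2.22), and UCP1 and UCP3 did not reach 1 RPKM.

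Carriers reach the inner membrane by the TIM22 route, in which small TIM chaperones guide them across the space between the membranes. Of 10 measured genes of this route, 8 were lower, where 64.4% of all measured genes were. Their median log2 ratio was -0.13 and none was 2-fold lower, beside 1.91% of all measured genes. The chaperone TIMM9 was at 26.0 and 14.0 RPKM, a ratio of 0.540 (0.407 to 0.708), while its partner TIMM10 was at 22.1 and 25.1 RPKM (0.819 to 1.56). TIMM8B was at 13.0 and 7.16 RPKM and C19orf52, an older symbol of the TIM22 complex subunit TIMM29, at 9.23 and 5.48 RPKM. TIMM22, the channel itself, was at 5.48 and 5.81 RPKM (0.763 to 1.46).

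Mitochondrial transporters of other families were mostly lower too. Of 16 measured members of that list 15 were lower, where 64.4% of all measured genes were, and the median log2 ratio was -0.30. None was 2-fold lower on the log2(RPKM + 1) scale, beside 1.91% of all measured genes. TSPO, an outer membrane protein that binds cholesterol, was at 28.2 and 14.2 RPKM, a ratio of 0.504 (0.380 to 0.661). The uniporter subunit SMDT1 was at 4.39 and 2.14 RPKM, a plain ratio of 0.488 (0.236 to 0.929), whereas the uniporter pore MCU was at 17.2 and 16.9 RPKM. The pyruvate carrier subunit MPC2 was at 6.32 and 3.76 RPKM and the sideroflexin SFXN4 at 19.2 and 11.3 RPKM. Of the outer membrane channels, VDAC3 was at 16.6 and 8.26 RPKM (ratio 0.498, 0.387 to 0.634), whereas VDAC1 was at 134 and 123 RPKM and VDAC2 at 67.3 and 68.0 RPKM.

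Regulators of mitochondrial biogenesis had 6 of 9 measured genes lower and a median log2 ratio of -0.21, a share near the 64.4% of all measured genes. TFB1M, a methyltransferase of mitochondrial ribosomal RNA, was at 5.62 and 3.28 RPKM, a ratio of 0.584 (0.372 to 0.890). The coactivator PPRC1 was at 19.1 and 26.1 RPKM, a ratio of 1.36 (1.22 to 1.53), and PPARGC1A was listed at 0 in both libraries. All 13 mitochondrially encoded protein genes were higher, with a median log2 ratio of 0.74. MT-ATP8 was highest in ratio, at 4811 and 18507 RPKM. The part of this larger mitochondrial share in the carriers' values was not tested. Without mitochondrially encoded genes in the total, the median of the carriers was -0.09, with 19 of 34 lower, and that of all measured genes -0.01.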

How the data were processed

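The deposited tables give RPKM per gene, as computed by the authors, in 57773 rows per library, per the file headers. Coordinates are on hg19, a build named in the submitters' processing notes. Aligner, counting program, annotation, strand use and handling of multiply matching reads: not given in the sources used here. Rows whose names differ only by a numeric suffix were summed. Library totals were the smallest at which all 13 mitochondrial protein genes gave whole reads (tolerance 0.001), and each exon length was one giving whole reads in both libraries, settled for 28 of 34 measured members and otherwise nearest to the GENCODE 29 length (SLC25A5, SLC25A6, SLC25A13, SLC25A24, SLC25A30 and SLC25A44), so read numbers and intervals of these 6 rest on that length. Log2 ratios use a pseudocount of 1. Intervals of ratios are exact binomial intervals given both depths. Procedures were checked on simulated libraries. The text names the measured members, except 1 that is counted in the totals but not reported here, and, of other lists, genes differing at least 1.5-fold (for mitochondrially encoded genes the highest) or the highest and lowest; MDH2, MCU, TIMM22, VDAC1, PPRC1 and PPARGC1A were added with values known. Members and lists were chosen with earlier results of these data known. Python 3.11.15, scipy 1.17.1 and statsmodels 0.14.6 were used.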

Additional observations from a re-analysis of the deposited data

How the results depend on the processing

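The median log2 ratio of the measured SLC25A genes, -0.17, was below 0 under every alternative tried, though a change of pseudocount alone cannot turn a sign. Over all genes the median was -0.11 as reported, -0.13 and -0.07 with pseudocounts of 0.1 and 5, and -0.13 with a minimum of 5 RPKM. It was 0.00 after centring, 0.03 with upper-quartile scaling and -0.25 with the same total RPKM. Without mitochondrially encoded genes in that total it was -0.01, and 0.00 with the length trend removed. The median of the members was -0.24 with a pseudocount of 0.1, -0.09 with a pseudocount of 5, -0.35 with a minimum of 5 RPKM, -0.06 after centring on the median gene, -0.06 with upper-quartile scaling, -0.30 with the same total RPKM, -0.09 with the same total without mitochondrially encoded genes, -0.05 with the exon length trend removed and -0.11 without members that have a pseudogene row. The number of higher members, 10, became 3 with a minimum of 5 RPKM, 16 with upper-quartile scaling and 4 with the same total RPKM. The number at least 2-fold lower, 1, became 0 with a pseudocount of 5 and 0 with a minimum of 5 RPKM, which leaves SLC25A17 out. The number of intervals that leave out 1, 13, became 6 without members that have a pseudogene row, and lay between 12 and 17 under the 4 scalings, which were applied to it after the data were seen. The share below 1 was 29.4% of members and 16.5% of all settled genes after centring, 23.5% and 14.6% with upper-quartile scaling, 50.0% and 44.6% with the same total RPKM, and 32.4% and 17.5% with the same total without mitochondrially encoded genes. These member shares take in the 6 members whose reads were not settled, so both sets are not of the same kind. Fewer members were counted under the minimum and the pseudogene alternatives; otherwise the cause was not tested. No paired analysis was possible because each group has 1 library. Depth limits members below about 2 RPKM most, as the wide interval of SLC25A20 shows.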
